A study of Mus musculus with 23 samples.

Results

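The airway ion transport genes are Cftr, Ano1, Scnn1a, Scnn1b, Scnn1g, Slc26a4, Slc12a2 and Atp12a, whose products move chloride, bicarbonate, sodium or acid across the airway lining. They were taken by symbol, giving 8 of the 35322 genes in the deposited table. The study asked how exposure of mothers to PM2.5, fine airborne particulate matter, alters allergic airways disease (AAD) in their adult offspring. Poly(A) RNA was sequenced from right lung tissue of 13-week-old female Balb/c offspring that were never exposed to PM2.5 directly. Sham offspring (n = 7) were born to dams given saline through the nose, and PM offspring (n = 7) to dams given PM2.5 suspended in saline by the same route before mating, in gestation and until weaning. Sham-OVA (n = 5) and PM-OVA (n = 4) offspring came from the same kinds of dam and were sensitised to ovalbumin (OVA) with aluminium hydroxide, then challenged with aerosolised OVA, and their lungs were taken the day after the last challenge. The Sham and PM offspring inhaled saline according to the study's methods, which the labels call PBS. The methods do not make clear whether these saline controls were sensitised to OVA as well. The labels name the tissue as Lung (RML) and the methods name the right lower lobe. Neither source ties a library to a dam, so littermates cannot be recognised and the p-values measure the spread between these libraries.

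The values are reads-per-million (RPM), the reads of a gene scaled to the same total in every library. Between 13089691 and 17393579 reads fell on genes in each of the 14 Sham and PM libraries and between 2298645 and 12355561 in the 9 libraries after OVA challenge, so depth and OVA challenge cannot be told apart. A single read was worth between 0.0502 and 0.311 RPM, the latter in Sham-OVA replicate 3, the shallowest library. Sham replicate 1 did not match the female label, with Xist, the RNA of the inactive X chromosome, at 0.289 RPM and the Y-linked Eif2s3y at 54.0 RPM. The other 22 libraries held at least 174 RPM of Xist and none of Eif2s3y. Alveolar type 2 markers summed to between 15472 and 44544 RPM and alveolar type 1 markers to between 3851 and 8603 RPM, so every library carried the defining RNAs of lung parenchyma, and airway epithelium was a part of each piece. In such bulk tissue, fewer cells of a type and less RNA per cell cannot be told apart.

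Airway surface liquid is set by a balance of secretion and absorption. Chloride enters epithelial cells from the blood side through the cotransporter NKCC1 (Slc12a2) and leaves on the airway side through the cAMP-regulated channel CFTR (Cftr) and the calcium-activated channel TMEM16A (Ano1), while the epithelial sodium channel ENaC, built from the alpha, beta and gamma subunits of Scnn1a, Scnn1b and Scnn1g, draws sodium and water back in. Pendrin (Slc26a4) exchanges chloride for bicarbonate and other anions and is a well-known target of the type 2 cytokines IL-4 and IL-13, and the non-gastric proton pump of Atp12a acidifies the liquid in human airways but is known to be very low in mouse airways.

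RefSeq promoter windows, from 250 bases before to 50 bases after the start of transcription on GRCm38.p6, were matched for 5 of the 8 genes, namely Cftr, Ano1, Scnn1b, Scnn1g and Slc26a4. The windows of the genes that moved furthest in each direction are shown. They are Slc26a4 at chr12:31559935-31560234 and Ano1 at chr7:144738524-144738823, both on the minus strand and written 5′ to 3′ along the gene. The Ano1 window surrounds a RefSeq start inside the gene, whose annotated span on the minus strand begins at 144751974. Capitals mark the letters TATAAA, which begin 31 bases before the Slc26a4 start.
Slc26a4: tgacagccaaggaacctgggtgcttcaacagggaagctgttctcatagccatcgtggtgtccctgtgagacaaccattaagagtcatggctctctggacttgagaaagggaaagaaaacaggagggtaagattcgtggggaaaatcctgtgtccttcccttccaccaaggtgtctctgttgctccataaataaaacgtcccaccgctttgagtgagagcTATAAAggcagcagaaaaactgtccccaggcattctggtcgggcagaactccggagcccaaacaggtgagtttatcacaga
Ano1: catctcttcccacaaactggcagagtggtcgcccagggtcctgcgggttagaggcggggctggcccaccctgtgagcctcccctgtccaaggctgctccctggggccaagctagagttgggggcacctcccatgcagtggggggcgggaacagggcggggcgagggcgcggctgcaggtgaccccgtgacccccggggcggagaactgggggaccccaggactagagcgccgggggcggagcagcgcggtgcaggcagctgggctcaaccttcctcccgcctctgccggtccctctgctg
GC content was 50% in the Slc26a4 window and 71.7% in that of Ano1, against 71.3% for Cftr, 61.7% for Scnn1b, 64.7% for Scnn1g and a median of 52.7% over all 32851 windows. The letters TATAAA stood in 13.6% of all windows and, among the 5 genes, in Slc26a4 alone. None of the 5 windows held the STAT6 motif TTCNNNNGAA (found in 6.95% of all windows), the general STAT motif TTCNNNGAA (8.30%), the AP-1 motif TGANTCA (7.81%), the cAMP response core TGACG (20.8%) or the forkhead motif TGTTTAC (3.65%) on either strand. These counts describe letters in these windows only.

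After OVA challenge 1 of these genes, Slc26a4, rose from among the scarcest to the most abundant per unit of length. Ano1 and the ENaC subunits were lower. For Scnn1b the difference was about the median of all genes, but that median varied with gene length, as given below. In Sham offspring, limma on log2(RPM + 0.5) called 5 of the 7 genes that passed the filter on low values (at least 0.5 RPM in at least 4 libraries) at a Benjamini-Hochberg adjusted p under 0.05, 1 higher and 4 lower. In PM offspring it called all 7, 1 higher and 6 lower, but only 4 of them with quantile scaling, median-of-ratios scaling, DESeq2, edgeR or a replicate block, where Cftr, Scnn1b and Slc12a2 lost their calls. The background was high, since the same rule called 68.1% of the 16795 genes tested in Sham offspring (20.6% higher and 47.5% lower) and 65.3% in PM offspring (20.1% higher and 45.2% lower). The stricter limit of the study is an adjusted p below 0.000001 together with a log2 difference larger than 1 in size. The study applied it to DESeq2, whereas here it was applied to the limma values. It was passed by 4.51% of genes in Sham offspring, Slc26a4 among them. In PM offspring 0.286% passed, none of them of this set. All genes shifted by a median of -0.48 on the log2 scale in Sham offspring and -0.43 in PM offspring. Each difference below is to be read against that shift, which varied with gene length. The share of all genes whose groups did not overlap was not counted, so non-overlap of a gene below is a description only.

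**Figure D1:**
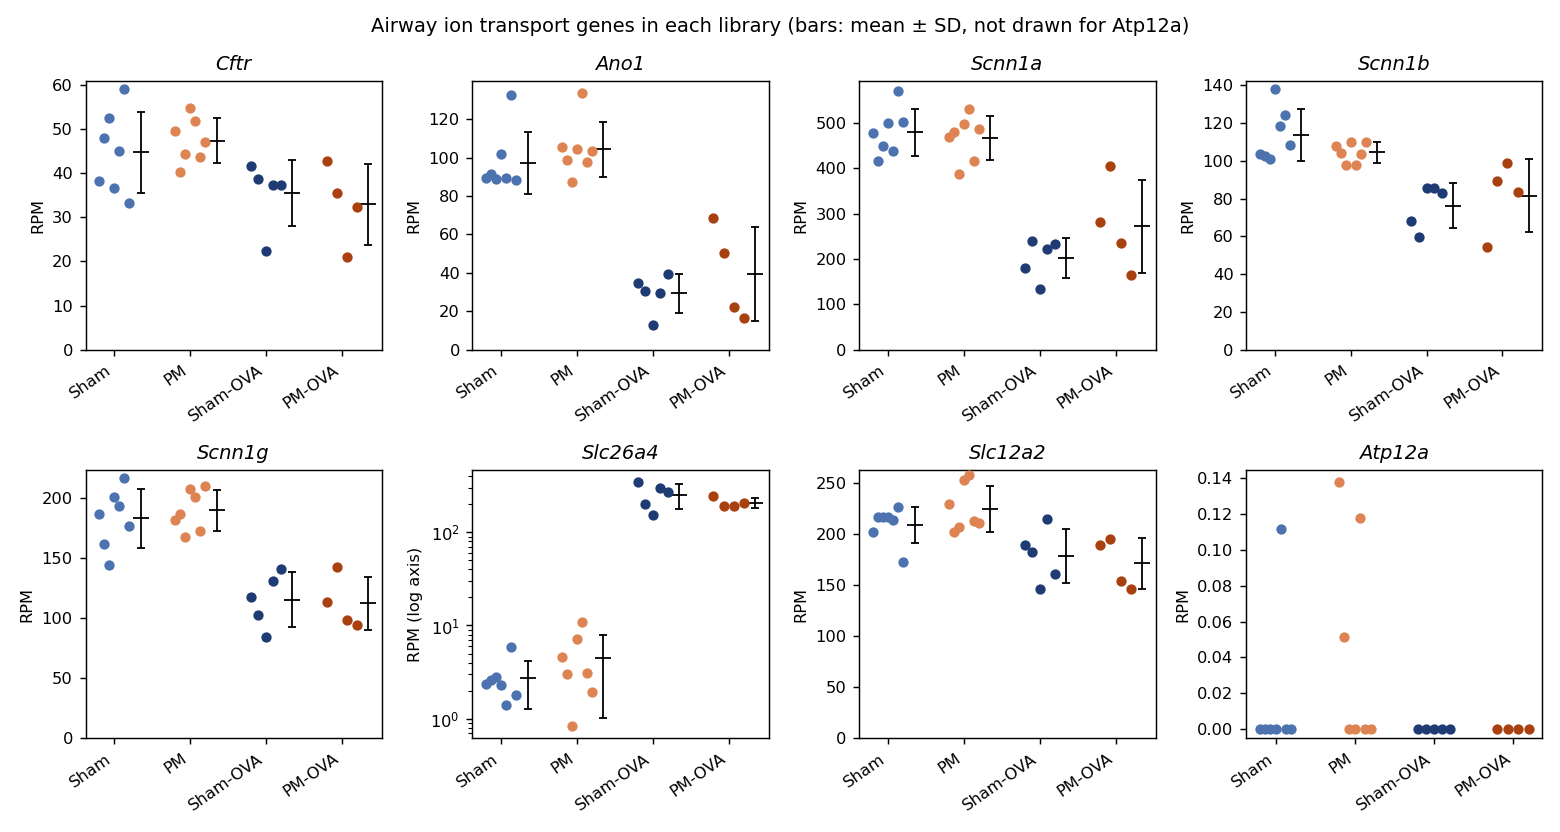
RPM (vertical axis; log axis for Slc26a4) of the 8 genes in each of the 23 libraries of the Sham, PM, Sham-OVA and PM-OVA groups, with 1 point a library and bars for the mean ± SD. The 9 OVA libraries lie at 154 to 347 RPM for Slc26a4 against 0.831 to 10.9 RPM in the 14 saline libraries, and below every saline library for Ano1.

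Slc26a4 encodes pendrin (ENSMUSG00000020651.8, chr12:31519827-31559969, minus strand, GRCm38). Its level in Sham lungs ranged from 1.39 to 5.81 RPM with a median of 2.37, and in PM lungs from 0.831 to 10.9 RPM with a median of 3.05, so every saline library was above the 0.5 RPM of the filter. In Sham-OVA replicates 1 to 5 it was 347, 202, 154, 298 and 269 RPM, and in PM-OVA replicates 1 to 4 it was 244, 194, 189.6 and 206 RPM. The lowest OVA library, Sham-OVA replicate 3, thus stood far above the highest saline library, PM replicate 5, and the groups did not overlap. Mean levels were 254 ± 76.5 RPM (SD, n = 5) against 2.72 ± 1.44 RPM (n = 7) in Sham offspring, a 93.4-fold ratio of means, and 208 ± 24.9 RPM (n = 4) against 4.50 ± 3.47 RPM (n = 7) in PM offspring, a 46.3-fold ratio. On the log2(RPM + 0.5) scale, which understates changes of low genes, the differences were 6.35 (SE 0.27, 95% confidence interval 5.76 to 6.93, limma adjusted p = 7.7e-10) and 5.68 (SE 0.46, 4.69 to 6.67, adjusted p = 3.13e-06). Slc26a4 stood at place 13 in Sham offspring and place 14 in PM offspring when the 16795 genes were ordered from the largest rise down.

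The chloride channel genes of the airway side moved the other way or little. Ano1 encodes the calcium-activated channel TMEM16A (ENSMUSG00000031075.18, chr7:144588549-144751974). Its level ran from 88.2 to 132 RPM in Sham lungs (median 89.6) and from 87.2 to 134 RPM in PM lungs (median 104). After challenge it was 34.9, 30.3, 12.7, 29.7 and 39.4 RPM in Sham-OVA replicates 1 to 5 and 68.7, 50.5, 22.2 and 16.7 RPM in PM-OVA replicates 1 to 4. Every OVA library was below every saline library of its cohort, and the PM-OVA libraries were spread over a wider range than the Sham-OVA ones. Means fell from 97.4 ± 16.1 to 29.4 ± 10.1 RPM in Sham offspring and from 104 ± 14.4 to 39.5 ± 24.5 RPM in PM offspring. The log2 differences were -1.79 (SE 0.23, -2.28 to -1.30, limma adjusted p = 1.05e-05) and -1.60 (SE 0.31, -2.28 to -0.93, adjusted p = 8.38e-04), or -1.31 and -1.175 relative to the median of all genes.

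Cftr encodes the cAMP-regulated chloride and bicarbonate channel (ENSMUSG00000041301.15, chr6:18170687-18322768, plus strand). It ranged from 33.3 to 59.0 RPM in Sham lungs (median 45.1) and from 40.3 to 54.8 RPM in PM lungs (median 47.1). It measured 41.6, 38.7, 22.4, 37.2 and 37.4 RPM in the Sham-OVA replicates and 42.9, 35.6, 21.0 and 32.3 RPM in the PM-OVA replicates, in order of number. The OVA libraries overlapped the saline libraries in both cohorts, with Sham-OVA replicate 3 and PM-OVA replicate 3 the lowest. The log2 difference in Sham offspring was -0.34 (SE 0.19, -0.73 to 0.06, limma adjusted p = 0.121) and did not pass, and in PM offspring it was -0.56 (SE 0.18, -0.94 to -0.18, adjusted p = 0.0142). The PM call was lost with quantile scaling (adjusted p = 0.294), median-of-ratios scaling (0.239), DESeq2 (0.328), edgeR (0.325) and the replicate block (0.0932). Relative to the median of all genes these were 0.14 and -0.13.

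The 3 ENaC subunit genes were called lower in both cohorts, by different amounts. Scnn1a, the pore-forming alpha subunit (ENSMUSG00000030340.16, chr6:125320659-125344943, plus strand), ran from 416 to 570.4 RPM in Sham lungs (median 477) and from 388 to 529.9 RPM in PM lungs (median 479). It was 179, 239, 134, 223 and 233 RPM in the Sham-OVA replicates, all below every Sham library. In the PM-OVA replicates it was 282, 405, 235 and 164 RPM, where replicate 2 alone reached into the range of the PM libraries. The log2 differences were -1.27 (SE 0.16, -1.61 to -0.93, limma adjusted p = 8.17e-06) in Sham offspring and -0.85 (SE 0.20, -1.29 to -0.41, adjusted p = 0.00308) in PM offspring, or -0.79 and -0.42 relative to the median of all genes.

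Scnn1b, the beta subunit (ENSMUSG00000030873.9, chr7:121865038-121918514, plus strand), ranged from 101 to 138 RPM in Sham lungs and from 97.6 to 110.3 RPM in PM lungs, with medians of 108 and 104. After challenge it was 68.1, 59.5, 85.8, 85.4 and 83.0 RPM in Sham-OVA, below every Sham library, and 54.4, 89.3, 99.2 and 83.3 RPM in PM-OVA, where replicate 3 overlapped the PM libraries. The log2 difference was -0.58 (SE 0.14, -0.87 to -0.29, limma adjusted p = 0.00171) in Sham offspring and -0.39 (SE 0.15, -0.72 to -0.06, adjusted p = 0.0371) in PM offspring, or -0.099 and 0.04 relative to the median of all genes. The PM value did not pass when any 1 of PM replicates 1, 2, 4, 6 and 7 or PM-OVA replicates 1 and 4 was left out, with adjusted p from 0.0519 to 0.0927 and the smallest difference, -0.21, without PM-OVA replicate 1.

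Scnn1g, the gamma subunit (ENSMUSG00000000216.8, chr7:121734479-121768475, plus strand), ends 96.6 kb before Scnn1b begins on the same strand. Its range was 145 to 217 RPM in Sham lungs (median 187) and 168 to 210.4 RPM in PM lungs (median 187). It measured 118, 103, 84.5, 131 and 141 RPM in the Sham-OVA replicates and 113, 143, 98.6 and 94.8 RPM in the PM-OVA replicates. No OVA library overlapped the saline libraries in either cohort. The log2 differences were -0.67 (SE 0.15, -0.997 to -0.35, limma adjusted p = 0.00119) and -0.77 (SE 0.14, -1.06 to -0.47, adjusted p = 4.64e-04), or -0.19 and -0.34 relative to the median of all genes.

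The cotransporter gene Slc12a2 (ENSMUSG00000024597.11, chr18:57878678-57946821, plus strand), which loads epithelial cells with chloride, differed little. It lay between 172 and 226 RPM in Sham lungs (median 216) and between 201 and 257 RPM in PM lungs (median 213). It was 189, 182, 146, 214 and 161 RPM in Sham-OVA, overlapping Sham, and 189, 195, 154 and 146 RPM in PM-OVA, below every PM library. The log2 difference was -0.24 (SE 0.13, -0.51 to 0.04, limma adjusted p = 0.113) in Sham offspring and -0.39 (SE 0.13, -0.68 to -0.11, adjusted p = 0.0170) in PM offspring. Relative to the median of all genes these were 0.24 and 0.03. After removal of the trend with length and GC content, given below, Slc12a2 was called higher, by 0.86 and 0.71. The PM value did not pass without PM-OVA replicate 3 (adjusted p = 0.0510) or replicate 4 (0.0568), nor with quantile scaling (0.288), median-of-ratios scaling (0.824), DESeq2 (0.944), edgeR (0.910) or the replicate block (0.159).

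Atp12a, the proton pump gene (ENSMUSG00000022229.3, chr14:56365068-56388550, plus strand), was close to absent. It had 2 reads over the 7 Sham libraries and 5 reads over the 7 PM libraries, and the highest single library, PM replicate 1, reached 0.138 RPM. No read was found over the 5 Sham-OVA or the 4 PM-OVA libraries, which by counting error alone allows pooled levels of up to 0.0525 and 0.0734 RPM. Atp12a did not pass the filter and has no test among the 16795 genes.

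**Figure D2:**
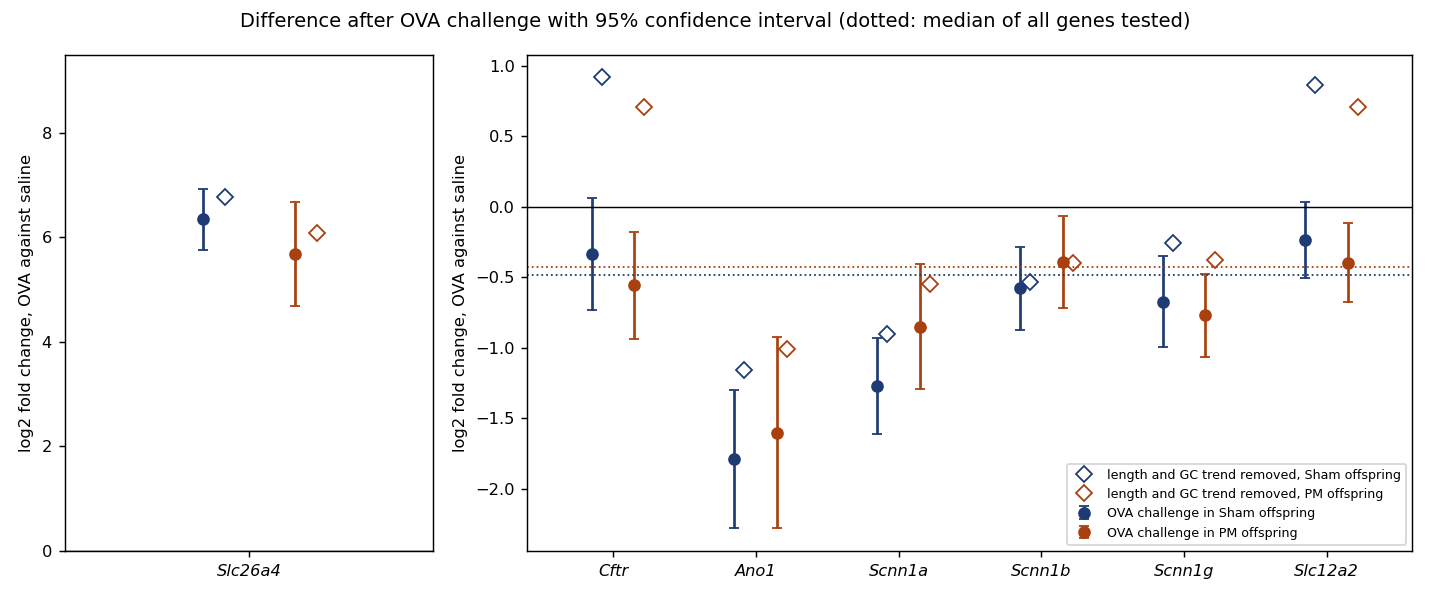
Log2 fold change of OVA against saline (vertical axis) for 7 genes in Sham and PM offspring, with filled points for the values above, bars for 95% confidence intervals, open diamonds for the values after removal of the trend with length and GC content, and dotted lines for the median of all genes. Slc26a4 lies at 6.35 and 5.68, Ano1 lowest at -1.79 and -1.60, and the diamonds of Cftr and Slc12a2 are above 0 where their filled points are below 0.

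The genes differed in how far their directions held under other settings, and the difference after OVA challenge varied with gene length over all genes. The median log2 difference of all genes ran from 0.11 in the shortest quartile by exon length (up to 1.925 kb) through -0.27 and -0.61 to -0.99 in the longest (from 4.747 kb) in Sham offspring, and from 0.14 to -0.96 in PM offspring. Cftr, at 7.50 kb of exon, and Slc12a2, at 6.52 kb, are in the longest quartile, and after the trend of each library with exon length and GC content was removed they were higher after challenge, Cftr by 0.92 in Sham offspring and 0.71 in PM offspring (limma adjusted p = 1.37e-04 and 0.00182) and Slc12a2 by 0.86 and 0.71 (adjusted p = 1.41e-04 and 0.00229). In Sham offspring both were also slightly above 0, without a call, with median-of-ratios scaling, DESeq2 and edgeR, so their direction depends on the scaling. At an adjusted p under 0.05, Slc26a4 was called higher, and Ano1 and Scnn1a lower, in both cohorts under each of 12 alternatives, which included quantile and median-of-ratios scaling, DESeq2, edgeR and the length correction, and with each library left out in turn. At the study's stricter limit, which is not among the 12 and was applied to the limma values, only Slc26a4 in Sham offspring passed. Under at least 1 of the 12 alternatives, Slc26a4 in PM offspring and Ano1 in both cohorts would also pass it. The paper, with its own DESeq2 test, lists Scnn1a as an epithelial gene changed by OVA in Sham offspring only. Passing the study's limit thus depends on the test used and on the libraries. Without Sham-OVA replicate 3, Ano1 (-1.52, limma adjusted p = 1.69e-08) and Scnn1a (-1.13, limma adjusted p = 3.42e-07) would pass it in Sham offspring. Scnn1g was called lower in 10 of the 12 in Sham offspring, without a pass in edgeR (-0.22, adjusted p = 0.148) and after the length correction (-0.26, adjusted p = 0.0805), and in all 12 in PM offspring. Scnn1b was called lower in 8 of the 12 in Sham offspring and in 5 of the 12 in PM offspring, where DESeq2 and edgeR gave a small positive difference. After the length correction Scnn1b was still called lower in Sham offspring (-0.53, limma adjusted p = 0.00443), where Scnn1g was not. Without Sham replicate 1, whose Xist level did not match its label, Slc26a4 differed by 6.33 and Ano1 by -1.81 in Sham offspring, and without the shallow Sham-OVA replicate 3 by 6.51 and -1.52, and 5 genes were called in each case. The part of RNA quality in the trend with length was not tested.

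The genes were then compared with each other per kilobase of exon. Reads had been mapped without splicing, and the effect of this on levels compared between genes was not tested. In the saline groups the order from the highest mean was Scnn1a (116 RPM per kb in Sham, 113 in PM), Scnn1g (61.2 and 63.5), Scnn1b (45.9 and 42.2), Slc12a2 (32.1 and 34.4), Ano1 (21.1 and 22.7), Cftr (5.96 and 6.32), Slc26a4 (0.884 and 1.46) and Atp12a. This order held within every saline library, with the exception of 1 PM library in which Slc12a2 was above Scnn1b. After challenge Slc26a4 came first at 82.6 RPM per kb in Sham-OVA and 67.7 in PM-OVA, ahead of Scnn1a at 48.8 and 65.7. It exceeded Scnn1a in 5 of 5 Sham-OVA libraries and 3 of 4 PM-OVA libraries. Below them followed Scnn1g (38.6 and 37.6), Scnn1b (30.8 and 32.9), Slc12a2 (27.4 and 26.2), Ano1 (6.39 and 8.58) and Cftr (4.73 and 4.39). In the OVA groups the ranges of all neighbours in this order overlapped, except between Slc12a2 and Ano1 and between Cftr and Atp12a.

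**Figure D3:**
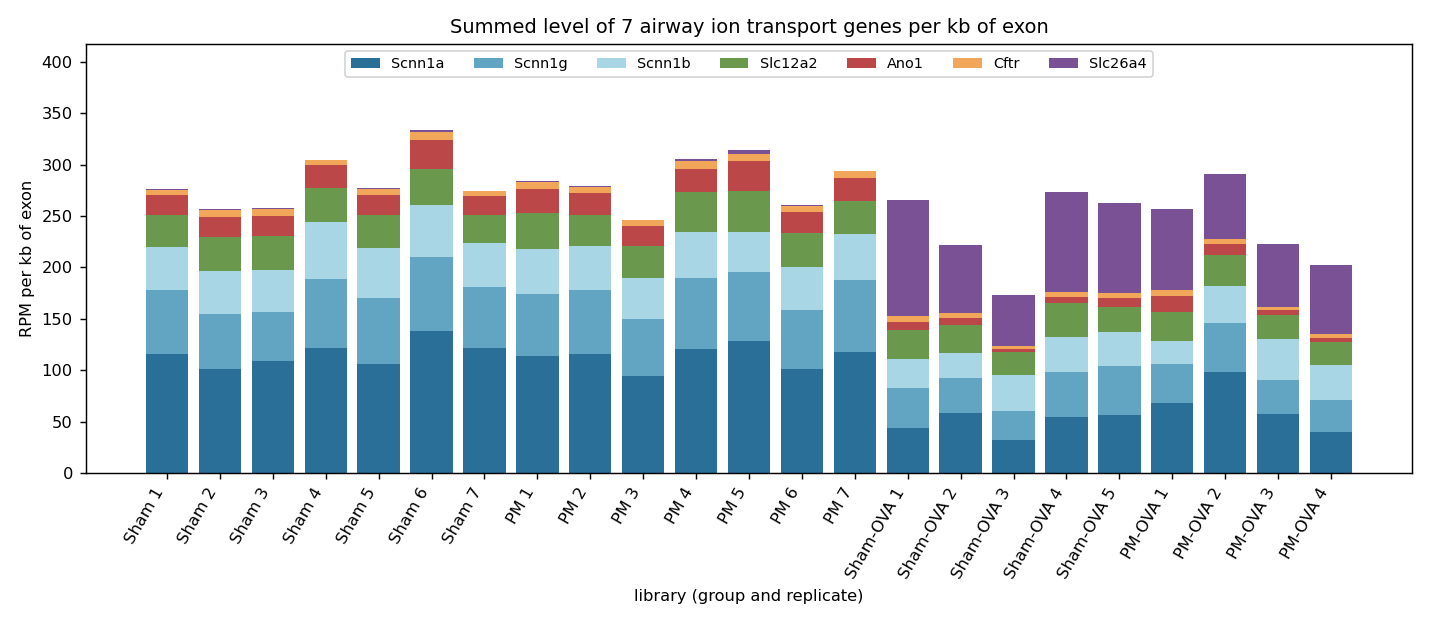
Stacked RPM per kb of exon (vertical axis) of 7 genes in each of the 23 libraries (horizontal axis). Slc26a4 makes up at most 1.12% of the stack in saline libraries and 21.7% to 42.5% in OVA libraries, while the height of the stack overlaps between them.

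The summed level of the genes moved less than its makeup. The sum was 283 ± 27.6 RPM per kb (SD) in Sham against 239 ± 42.0 after challenge, and 283 ± 23.9 in PM against 243 ± 38.8 after challenge. Slc26a4 made up 0.164% to 0.566% of the sum in Sham libraries and 0.110% to 1.12% in PM libraries, against 28.9% to 42.5% in Sham-OVA and 21.7% to 33.1% in PM-OVA. Scnn1a gave 38.3% to 44.1% in Sham and 16.4% to 26.1% in Sham-OVA, and 38.2% to 41.6% in PM and 19.6% to 33.8% in PM-OVA. The share of Slc12a2 overlapped between Sham (9.62% to 12.9%) and Sham-OVA (9.39% to 12.9%). Among the ENaC genes, the ratio of Scnn1b to Scnn1a per kb was 0.360 to 0.460 in Sham and 0.414 to 1.07 in Sham-OVA, and Sham-OVA replicate 3 held the highest ratio. In PM it was 0.307 to 0.419 and in PM-OVA 0.322 to 0.849, so the groups overlapped in both cohorts. For each unit of Cftr per kb there were 2.76 to 4.52 units of Ano1 in Sham and 0.928 to 1.72 in Sham-OVA, 3.10 to 4.21 in PM and 0.842 to 2.61 in PM-OVA. These ratios are within a library and do not depend on its scaling, though they do carry the trend with length.

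Maternal PM2.5 exposure was not accompanied by a called difference in any of these genes. PM against Sham gave no call among 16795 genes (0% called; 731 genes at an unadjusted p under 0.05), and DESeq2 and edgeR also gave none. Slc26a4 had the widest difference, 0.43 log2 units (SE 0.39, -0.40 to 1.26, limma adjusted p = 0.899), with PM replicates 4 and 5, at 7.24 and 10.9 RPM, above every Sham library and PM replicate 3, at 0.831 RPM, below every one. For the other 6 genes the difference lay between -0.11 (Scnn1b, -0.27 to 0.04) and 0.10 (Ano1, -0.11 to 0.32). PM-OVA against Sham-OVA also gave no call (0%; 313 genes at an unadjusted p under 0.05; edgeR 0 and DESeq2 1 gene). There Scnn1a differed by 0.38 (SE 0.28, -0.23 to 1.00), Ano1 by 0.29 (SE 0.46, -0.75 to 1.33) and Slc26a4 by -0.24 (SE 0.24, -0.77 to 0.30), each at a limma adjusted p of 1. The intervals still hold differences of 2-fold for Scnn1a and Ano1, so a p that misses the threshold does not show that the groups were alike.

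The test of whether the response to OVA challenge differed between PM and Sham offspring, an interaction term over all 23 libraries, called none of the 16795 genes (0%; 854 at an unadjusted p under 0.05; edgeR 0 and DESeq2 2 genes). Its value was -0.67 for Slc26a4 (SE 0.55, -1.80 to 0.47), 0.42 for Scnn1a (SE 0.26, -0.11 to 0.95) and 0.18 for Ano1 (SE 0.40, -0.64 to 1.01), all at a limma adjusted p of 0.99976. The unequal counts of called genes, 1 higher and 4 lower in Sham offspring against 1 higher and 6 lower in PM offspring, thus do not show a different response.

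Genes that act beside these channels and transporters were counted in 8 lists, and each count is to be read against the 20.6% higher and 47.5% lower of all genes in Sham offspring and the 20.1% and 45.2% in PM offspring. Paired values below are log2 differences in Sham and then PM offspring. The medians given for potassium channels, ENaC regulators, CFTR partners, the sodium pump list and carbonic anhydrases turned positive under at least 1 of 5 other scalings in each cohort, whereas those of other anion channels and of aquaporins stayed negative under all 5. Of 14 other anion channels and exchangers, 2 rose and 8 fell in Sham offspring (median -0.80) and 4 rose and 8 fell in PM offspring (median -0.93). Ano6, a scramblase and channel related to Ano1, fell (-3.21 and -3.24, SE 0.24 and 0.63), as did the sodium bicarbonate cotransporter Slc4a4 (-3.04 and -3.01, SE 0.54 and 0.71). The anion exchangers Slc4a2, at 0.84 and 0.90 (SE 0.17 and 0.21), and Slc26a6, at 0.55 and 0.72 (SE 0.21 and 0.27), rose. The largest called rise on this list was that of Slc4a2 in Sham offspring and that of Ano9 in PM offspring (1.19, named after its value was seen), both far smaller than that of Slc26a4.

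On the blood side, 4 of 11 genes of the sodium pump and basolateral transporters rose and 3 fell in Sham offspring (median -0.06), and 4 rose and 2 fell in PM offspring (median -0.03). The pump regulators Fxyd1 and Fxyd3 rose (1.86 and 1.95, and 1.74 and 1.98), while the pump subunit Atp1b1 (-1.44 and -1.19) fell. Epithelial potassium channels, which hold the electrical force for chloride exit, gave 1 higher and 3 lower of 8 tested in Sham offspring (median -0.17) and 2 higher and 3 lower in PM offspring (median -0.10). Kcnn4, a calcium-activated potassium channel also found in leukocytes, rose by 3.61 and 3.39 (SE 0.22 and 0.28), from a mean of 6.86 RPM in Sham to 89.3 RPM in Sham-OVA and from 6.48 RPM in PM to 79.2 RPM in PM-OVA. The potassium channel subunit Kcne2 (-2.66 and -2.60) and the channel Kcnk1 (-1.07 and -1.18) fell.

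Of 18 ENaC regulators and proteases, 3 rose and 8 fell in Sham offspring and 4 rose and 8 fell in PM offspring, with a median of -0.39 in both. Nr3c2 and Nr3c1, the mineralocorticoid and glucocorticoid receptors that raise ENaC expression, fell (-2.77 and -2.01, and -2.77 and -2.75). The channel-activating protease St14 (1.45 and 1.4796) and Spint2, an inhibitor of such proteases (1.49 and 1.52), rose. Of 18 CFTR partners and cAMP signalling genes tested, 5 rose and 8 fell in Sham offspring and 4 rose and 10 fell in PM offspring, with a median of -0.44 in both. The phosphodiesterase Pde4d, which breaks down cAMP, fell (-2.16 and -2.395), as did Gopc, which directs CFTR to lysosomes (-1.875 and -1.84). Stub1 and Rnf5, ubiquitin ligases that act on CFTR, rose (1.76 and 1.68, and 1.60 and 1.502).

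Among the 4 aquaporins, 3 fell and none rose in both cohorts (median -1.33 and -1.18), among them Aqp4, a basolateral water channel of airway cells, (-2.63 and -1.68) and Aqp1, the water channel of lung vessels (-1.86 and -1.63). Of 5 carbonic anhydrases, 1 rose and 1 fell in both cohorts (median -0.00): Car4 at 1.00 and 1.18, and Car8 at -0.90 and -0.69, which lost its call under all 5 other scalings in PM offspring and turned positive in 1. Of 8 genes of IL-4 and IL-13 signalling tested, 4 were called higher and 2 lower in both cohorts, but the cytokine genes Il4 and Il13, both among the 4, passed the filter only through OVA libraries, so their calls carry no weight. Socs1, an inhibitor that these cytokines induce, rose (2.96 and 2.51). Il13 itself was at 0 in all 7 Sham libraries and at 0.114 RPM in 1 of 7 PM libraries, against 0 to 4.24 RPM in Sham-OVA and 0 to 1.31 RPM in PM-OVA. The kinase gene Jak1 (-1.21 and -1.41) and the receptor subunit gene Il13ra1 (-1.06 and -1.07) fell. Of the 44 genes that the naming rule picked from these lists and from the marker lists below, 44 kept their direction under 5 other scalings in Sham offspring and 43, all but Car8, in PM offspring, and 39 and 31 of them kept their call under all 5.

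**Figure D4:**
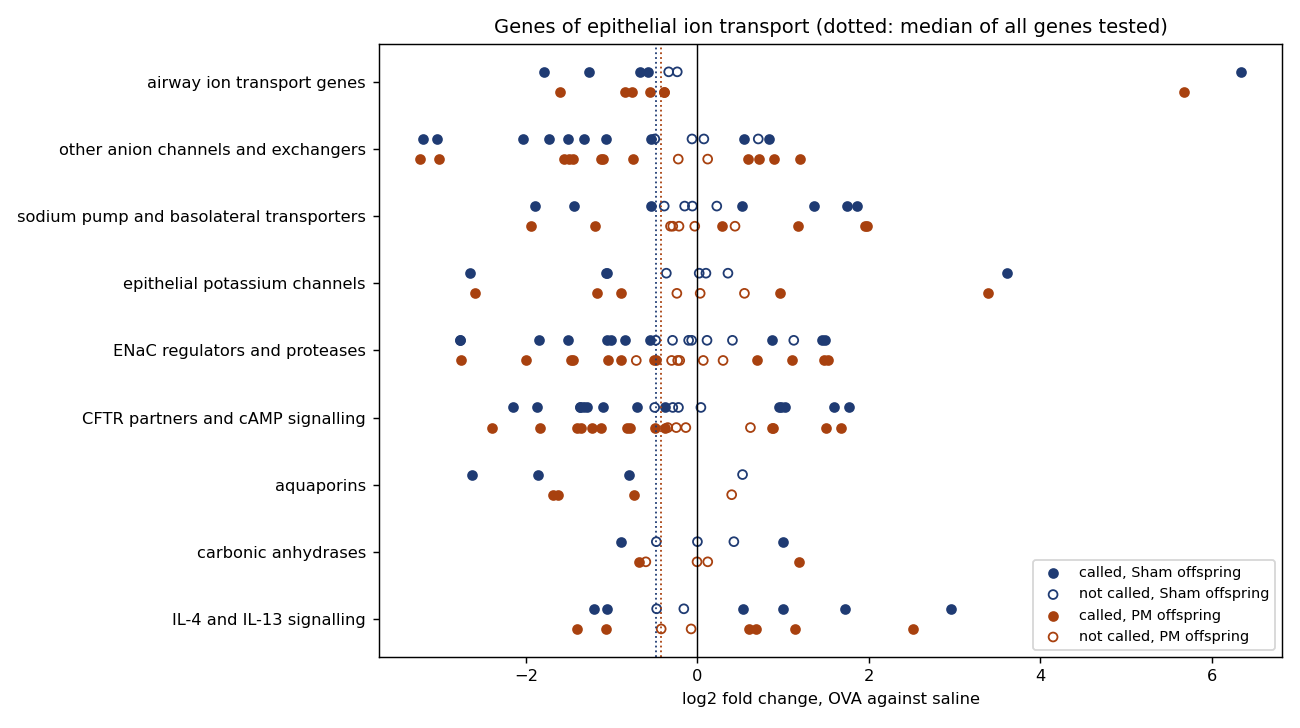
Log2 fold change of OVA against saline (horizontal axis) for each tested gene of the airway ion transport set and of 8 related lists (vertical axis) in Sham and PM offspring, filled where called and open where not, with dotted lines for the median of all genes. Slc26a4, at 6.35 and 5.68, is the rightmost point, followed by Kcnn4 at 3.61 and 3.39.

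Markers of the cells that could carry these genes were counted in the same way. The counts below depend on the scaling: under 5 other scalings general epithelial markers gave 2 to 4 higher and 2 to 3 lower in Sham offspring, alveolar type 2 markers 0 to 6 higher and ionocyte markers 4 to 5 higher, while all 9 goblet cell markers were higher under each of the 5 in both cohorts. All 9 goblet cell markers rose in both cohorts (median 3.57 and 4.13), led by Clca1, a secreted goblet cell protein, (9.86 and 10.54, SE 0.56 and 1.38). Their summed level was 9.31 to 37.0 RPM in Sham against 514 to 2173 in Sham-OVA, and 10.2 to 234 RPM in PM against 1325 to 5385 in PM-OVA. Ionocytes, rare airway cells rich in Cftr, were barely visible: Foxi1, the factor that defines them, had no read in any of the 23 libraries, and 5 of the 11 ionocyte markers, Foxi1, Ascl3 and Bsnd among them, did not pass the filter. Bsnd, a chloride channel subunit, stayed at or below 0.239 RPM in every library. Of the other 6, 2 rose in Sham offspring and 4 in PM offspring and none fell (median 0.59 and 0.75; Moxd1 1.36 and 1.60), and the sum of the list, mostly proton pump subunits, reached 91.1 RPM in Sham against 63.1 to 120.3 RPM in Sham-OVA, and ran from 58.6 to 66.0 RPM in PM against 89.3 to 130.5 RPM in PM-OVA. The part of either cell type in the values above was not tested.

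Club cell markers gave 1 higher and 4 lower of 6 in Sham offspring and 1 higher and 3 lower in PM offspring, with the secretoglobin Scgb3a1 higher (5.26 and 5.14) and the cytochrome Cyp2f2 lower (-2.34 and -1.33). Their sum was 16898 to 42019 RPM in Sham against 4707 to 30816 in Sham-OVA, and 17501 to 28514 RPM in PM against 7482 to 38864 in PM-OVA. Ciliated cell markers gave 1 higher and 2 lower of 9 in Sham offspring and 6 higher and 1 lower in PM offspring (Dynlrb2 1.22 and 2.02, Sec14l3 -3.10 and -2.50), with a sum of 1251 to 1705 RPM in Sham against 430.3 to 942 in Sham-OVA, and 1131 to 1635 RPM in PM against 775 to 1471 in PM-OVA. Alveolar type 1 markers gave 1 higher and 6 lower of 8 in Sham offspring and 0 higher and 6 lower in PM offspring (Clic5 -2.83 and -2.78), and alveolar type 2 markers 2 higher and 3 lower of 9 in both cohorts (Sftpc 1.19 and 1.14, Lamp3 -3.34 and -4.25). General epithelial markers gave 0 higher and 4 lower of 8 in Sham offspring and 2 higher and 3 lower in PM offspring (Krt18 -2.10 and -1.59), with a sum of 963 to 1213 RPM in Sham against 921 to 1136 in Sham-OVA, and 980.4 to 1638 RPM in PM against 958 to 1337 in PM-OVA. Basal cell markers gave 1 higher of 3 tested in both, Krt14, which passed the filter only through OVA libraries, and summed to at most 7.15 RPM in any library.

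Smooth muscle markers gave 4 higher and 3 lower of 7 in Sham offspring and 3 higher and 2 lower in PM offspring (Tagln 1.30 and 1.251, Myh11 -1.51 and -1.36), and their sum was 676 to 923 RPM in Sham against 971 to 1952 in Sham-OVA, and 597 to 1622 RPM in PM against 754 to 2079 in PM-OVA. Leukocyte markers gave 3 higher and 2 lower of 8 in both cohorts (Itgax 2.99 and 2.67, Lyz2 -1.81 and -1.71), with sums of 413 to 749 RPM in Sham against 303 to 800.2 in Sham-OVA, and 483 to 563 RPM in PM against 419.9 to 712 in PM-OVA. Submucosal gland and large airway markers gave 2 higher and 1 lower of 4 tested in both (Bpifb1 6.98 and 6.70, Lyz1 -2.32 and -2.49), with sums of 14.6 to 55.3 RPM in Sham against 85.7 to 1909 in Sham-OVA, and 23.9 to 117 RPM in PM against 157 to 776 in PM-OVA. The part of the share of airway in each piece of lung in the levels of the ion transport genes was not tested.

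**Figure D5:**
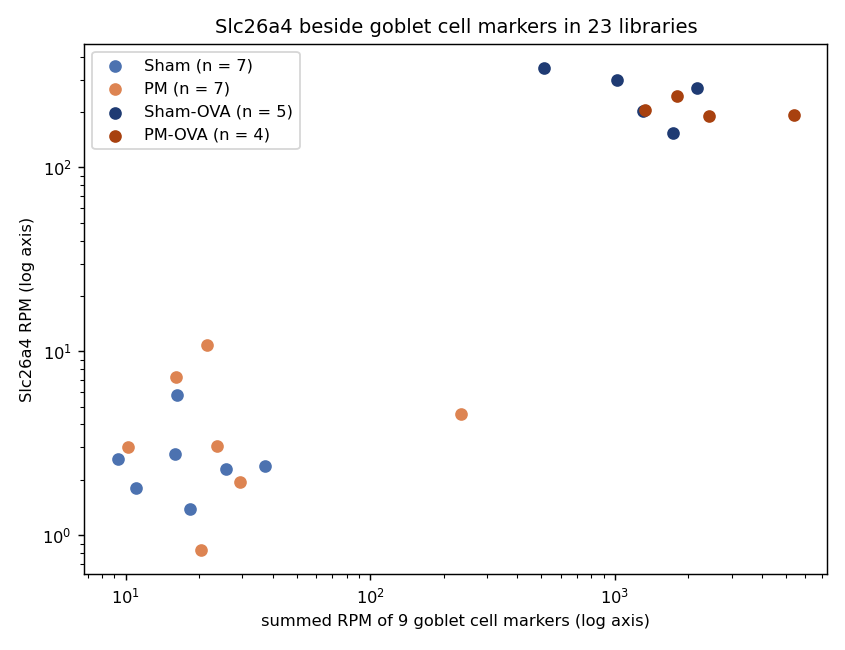
Slc26a4 RPM (vertical log axis) against the summed RPM of 9 goblet cell markers (horizontal log axis) in the 23 libraries, coloured by group. Saline and OVA libraries form separate clusters, and among the 9 OVA libraries the highest Slc26a4 level, 347 RPM, stands with the lowest goblet sum, 514 RPM.

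Set side by side, Slc26a4 and the goblet cell markers both separated saline from OVA libraries, while their orders within the OVA libraries differed. Sham-OVA replicate 1 held the most Slc26a4 of all libraries, 347 RPM, and the smallest goblet sum of the OVA libraries, 514 RPM. PM-OVA replicate 2 held the largest goblet sum, 5385 RPM, with 194 RPM of Slc26a4. Among saline libraries PM replicate 1 carried 178 RPM of Clca1, far above the 6.16 RPM of the next saline library, with Slc26a4 at 4.54 RPM. PM replicate 5 had the highest saline Slc26a4, 10.9 RPM, with no read of Clca1. These libraries were singled out after their values were seen.

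Within groups the levels of several of these genes varied together. Over the 23 libraries, Pearson correlations of log2 values as deviations from group means were 0.81 for Ano1 with Scnn1a, 0.77 for Scnn1a with Scnn1g, 0.72 for Cftr with Slc12a2 and 0.70 for Cftr with Ano1. Over all 23 libraries Scnn1b stood apart, at -0.05 with Scnn1a, 0.24 with Scnn1g, -0.40 with Ano1 and -0.47 with Cftr. Over the 14 saline libraries alone these were 0.44, 0.71, 0.38 and -0.02 in the same order. Over the 9 OVA libraries they were -0.17, 0.03, -0.55 and -0.68. The points share their library, depth and share of airway, so the values are a description only.

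By the same measure, over all 16795 genes, the gene most like Ano1 was Ptprf (0.98), a receptor phosphatase, followed by Slc31a1 (0.96) and Tspan15 (0.96). Scnn1a was most like Marveld3 (0.93), Lrrc8e (0.89) and 1700030J22Rik (0.89), Scnn1b like Misp (0.92), Unc13d (0.84) and P2rx4 (0.84), and Scnn1g like Slco3a1 (0.87), Ripk4 (0.84) and Tor3a (0.83). Cftr was most like Ildr2 (0.89), Oxct1 (0.89) and Sfmbt2 (0.87), and Slc12a2 like Hc (0.91), F7 (0.88) and Gm44751 (0.87). Slc26a4 had the loosest neighbours, with Mfsd2a at 0.81 and Cd276 at 0.76.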

How the data were processed

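Lung RNA of 23 mice in 4 groups was analysed. Per the methods, the authors trimmed single-end reads with Trimmomatic, mapped them to GRCm38 with Bowtie2, which does not splice reads, and counted reads per gene in SeqMonk. The deposited table, although named for RPKM, holds reads-per-million (RPM) as the authors normalised it, with no length correction: all values were whole multiples of 1 read within 0.05 of a read. Groups came from the labels and the columns were matched by library name. The members and gene lists were chosen with earlier results of these data known.

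The 16795 genes that reached 0.5 RPM in 4 or more of the 23 libraries were tested on log2(RPM + 0.5) with limma 3.58.1 (variance trend, R 4.3.3), two-sided, with Benjamini-Hochberg adjustment over all genes tested and a call at an adjusted p under 0.05. Each pairwise comparison was fitted on its own libraries and the interaction on all 23. The test had been planned for RPKM and fits RPM alike. Count tests on the recovered whole reads, edgeR 4.0.16 (quasi-likelihood) and DESeq2 1.42.0, were alternatives, beside other pseudocounts, no filter, quantile and median-of-ratios scaling, array weights, removal of the trend with exon length and GC content (98.5% of tested genes had both), thinning to 1 depth, a replicate block, 1 fit over all groups, the study's threshold and leaving out each library. The steps were tested on simulated data. Replicates differed by more than sampling noise (lowest chi-square per degree of freedom 6.87). The confidence intervals are limma's and measure the spread between libraries, while the limits given for a count of 0 cover counting error only.

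From each pathway list the text names up to 2 genes with the largest rise and up to 2 with the largest fall among those called in the same direction in both OVA comparisons, from each marker list the highest and the lowest such gene, and for each member the 3 genes with the most similar deviations from group means. Some genes that this rule picks are not reported here. Gene positions and exon lengths are those of GENCODE vM21, and promoter windows are those of RefSeq, where Scnn1a, Slc12a2 and Atp12a are not shown. Without a stated strand setting, reads of a gene and of an overlapping antisense gene cannot be told apart.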

Additional observations from a re-analysis of the deposited data

Results flagged for a closer look

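Of 28 sets of values tested (7 genes in 4 groups), 4 held a library that stood further from its group than Dixon's 95% limit allows, where chance gives about 1 in 20. Cftr in Sham-OVA replicate 3 was 22.37 RPM, with the nearest library at 37.21 RPM. Ano1 in the same library was 12.74 RPM, with the nearest at 29.72 RPM, and this was the shallowest library of all. Ano1 in Sham replicate 6 was 132.4 RPM against 101.6 RPM in the nearest library. Slc12a2 in Sham replicate 7 was 172.3 RPM against 202.1 RPM in the nearest.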

How the results depend on the processing

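The number of the 7 genes called after OVA challenge was 5 in Sham offspring, 3 with edgeR and 1 at the study's threshold applied to the limma values. In PM offspring it was 7, but 4 with quantile scaling, median-of-ratios scaling, DESeq2, edgeR or the replicate block and 0 at the study's threshold, with 5 to 7 on leaving out libraries. Over all genes the study's threshold left 758 of 11431 calls in Sham offspring and 48 of 10968 in PM offspring. The share of calls that were higher was 30.2% and 30.8%, and 48.5% and 49.3% with quantile scaling, 43.4% and 44.7% with median-of-ratios scaling, 45.3% and 49.7% with DESeq2, 49.6% and 50.1% with edgeR and 50.1% and 50% after the length correction. PM-OVA against Sham-OVA gave 1 call with DESeq2 and 1 with all groups in 1 fit. The interaction gave 1 with no filter, 2 with DESeq2, 4616 with array weights and 0 to 6 on leaving out libraries (6 with Sham-OVA replicate 5 left out and 1 with PM-OVA replicate 2 left out), none of them in this gene set. The cause was not tested.

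Directions turned as follows. In Sham offspring Cftr was 0.0454 with quantile scaling, 0.0293 with median-of-ratios scaling, 0.0173 with DESeq2, 0.10 with edgeR and 0.92 after the length correction, and Slc12a2 was 0.13, 0.14, 0.23 and 0.86 with the last 4 of these. In PM offspring Cftr and Slc12a2 were both 0.71 after the length correction, and Scnn1b was 0.0886 with DESeq2 and 0.0708 with edgeR. For PM against Sham, Scnn1a was 0.0026 with array weights and -0.0699 to 0.00596 on leaving out libraries. For PM-OVA against Sham-OVA, array weights gave -0.13 for Ano1 (their estimation stopped before it converged), and leaving out libraries gave -0.0507 to 0.62 for Ano1, -0.27 to 0.0787 for Cftr, -0.0297 to 0.26 for Scnn1b, -0.16 to 0.0428 for Scnn1g and -0.13 to 0.0120 for Slc12a2. In the interaction Ano1 was -0.52 with array weights and -0.15 to 0.52 on leaving out libraries. Of the other values of single genes, 858 kept direction and call and 41 kept direction and lost the call.

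Replicate numbers were not used to pair the libraries in the main tests. They are the numbers of the labels, which in the OVA groups partly differ from those in the library names. Pairing by the library names was not tested. Same-numbered libraries correlated at -0.07 to 0.12 for OVA challenge in Sham offspring (2 of 5 best with their own number), -0.10 to 0.06 in PM offspring (1 of 4), -0.25 to 0.10 for PM against Sham (0 of 7) and -0.31 to 0.62 for PM-OVA against Sham-OVA (2 of 4). With the replicate block, Scnn1g in PM-OVA against Sham-OVA was 0.0428, calls over all genes went from 11431 to 10025 and from 10968 to 7982, and Cftr, Scnn1b and Slc12a2 lost their calls in PM offspring.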
